A study of Homo sapiens with 6 samples.

Results

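RNA polymerase I and RNA polymerase III, with the factors that bring them to their promoters, were followed in U-937 cells that had received a guide RNA against METTL1. The genes were chosen by name, as every row named POLR1 or POLR3 plus a letter code, together with the TAF1A to TAF1D subunits of the selectivity factor SL1, UBTF, BRF1, BRF2, BDP1, GTF3A, GTF3C1 to GTF3C6 and MAF1. The rule found 31 of the 26810 gene rows. Of these, 8 belong to polymerase I, 21 to polymerase III, and POLR1C and POLR1D encode subunits of both enzymes. All 31 passed the filter on low values and were tested. Another polymerase I factor that the rule names was not analysed here. The table lists 3 further polymerase I subunits and 1 further polymerase III subunit under older symbols, and these are described apart from the 31.

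The sgMETTL1.3 group carried the guide against METTL1 and the sgNS group a control guide, each delivered by lentivirus into a single Cas9-expressing clone of U-937. U-937 is a human leukemia line of monocyte-like cells, and the labels give every library the same genotype, a KMT2A-MLLT10 fusion. Each group held 3 libraries. Both groups were selected with blasticidin at 10 µg/ml and hygromycin B at 200 µg/ml and were harvested about 8 to 10 days after transduction, and libraries were made from 300 ng of total RNA after poly(A) selection. Since 1 clone and 1 METTL1 guide were used, loss of METTL1 cannot be told apart from other effects of that guide or clone. The labels do not say whether replicates came from separate cultures. The p-values therefore cover only the variation among these libraries, and that variation may be technical.

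Polymerase I makes the precursor of the large ribosomal RNAs in the nucleolus, after UBTF and SL1 (TBP with the TAF1 subunits) have marked the promoter. Polymerase III makes 5S ribosomal RNA, tRNAs and other short RNAs. Its promoters are read by TFIIIA (GTF3A, used for 5S) and TFIIIC (the GTF3C subunits), which place TFIIIB (BDP1 and TBP with BRF1 or BRF2), and TFIIIB recruits the polymerase. MAF1 represses polymerase III when nutrients or growth signals are short. METTL1, with its partner WDR4, methylates guanosine at N7 in a subset of tRNAs, which are products of polymerase III.

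Each library's deposited values are its TPM times a single factor that sets its spike-in RNAs to a common sum. The factor averaged 0.935 ± 0.0973 in sgMETTL1.3 and 1.19 ± 0.0518 in sgNS libraries (SD, n = 3; exact two-sided permutation p = 0.1, the smallest that 3 against 3 allows). With it, the median of the log2 fold changes over 12449 tested genes was -0.32, against 0.01 as TPM, so the 31 genes are given on both scales. Per the labels' protocols the ERCC spike-ins were added in library preparation from that equal input of total RNA. The labels give neither their amount nor a number of cells, so a deposited value is not a measure of RNA per cell. The library sgMETTL1.3 replicate 1 differed from the other 2 of its group along transcript GC content. METTL1 itself had values of 8.28, 5.94 and 7.42 in sgMETTL1.3 libraries, against 19.7, 22.0 and 20.3 in sgNS libraries, with -1.41 as its log2 fold change (limma adjusted p = 2.41e-06), and -1.08 as TPM. Of 8 myeloid markers 7 averaged at least 1, with MPO below it, and together they summed to between 611 and 786 in sgMETTL1.3 libraries, against 1138 to 1228 in sgNS libraries. LYZ, singled out after its values were seen, averaged 72.1 ± 7.48 in sgMETTL1.3 and 404 ± 16.3 in sgNS libraries (SD, n = 3). As TPM the other 7 summed to between 686 and 727 in sgMETTL1.3 libraries, against 678 to 691 in sgNS libraries. Among them SPI1 and CEBPA did not pass on either scale. CD33 (-0.64, and -0.28 as TPM), CSF1R (-0.62 and -0.35) and FCGR1A (-0.85 and -0.50) fell on both scales. PTPRC fell as deposited (-0.36) and did not pass as TPM. The 3 T cell markers summed to between 4.85 and 5.86 in sgMETTL1.3 libraries, against 2.51 to 2.87 in sgNS libraries. CD2 alone made up nearly all of that sum (log2 fold change 0.75, and 1.03 as TPM). The 3 fibroblast markers summed to between 1.78 and 3.16 in sgMETTL1.3 libraries, against 1.22 to 1.56 in sgNS libraries. Most of it was COL1A1 (0.62, and 0.83 as TPM), and COL1A2 was listed at 0 in every library. The 3 B cell markers summed to between 4.26 and 8.18 in sgMETTL1.3 libraries, against 3.69 to 5.31 in sgNS libraries. CD3D and MS4A1, which define T and B cells, and the 3 erythroid markers were listed at 0 in every library, and the 3 epithelial markers summed to at most 0.123. The part of these marker differences in the results below was not tested.

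Most of the machinery passed limma's test as lower in sgMETTL1.3 cells as deposited, though not as TPM, and polymerase I subunits passed as lower on both scales. As deposited, 24 of the 31 genes fell, none rose and 7 did not pass limma's test at an adjusted p under 0.05. Among all tested genes 49.3% fell and 6.4% rose. The median log2 fold change of the 31 was -0.49. As TPM, 14 of the 31 fell, 2 rose and 15 did not pass, where 25.3% of all tested genes fell and 24.8% rose, and the median of the 31 was -0.13. A set of 12 genes fell on both scales and in all 17 alternative fits. They were POLR1A, POLR1B, POLR1E, TAF1A and TAF1B of polymerase I, the shared POLR1C, and POLR3B, POLR3E, POLR3G, GTF3A, GTF3C2 and GTF3C4 of polymerase III. The share of all tested genes that fell in every fit was not computed, so this count has no background to be read against. In these bulk RNA samples, fewer cells that express a gene and less RNA per cell cannot be told apart.

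The 3 polymerase I subunits in the rule fell on both scales, POLR1B the most. Of all tested genes 49.3% fell as deposited and 25.3% as TPM. POLR1A, the largest subunit and part of the catalytic centre, had values of 25.8, 21.5 and 24.6 in sgMETTL1.3 libraries, against 38.8, 42.5 and 41.7 in sgNS libraries. Its log2 fold change was -0.75 (SE 0.109, limma adjusted p = 7.29e-05), and -0.40 as TPM. Every sgMETTL1.3 library lay below every control, with replicate 2 the lowest. POLR1B, the second largest subunit, which completes the catalytic centre, had 27.2, 27.1 and 30.9 in sgMETTL1.3 libraries, against 62.6, 66.1 and 64.6 in sgNS libraries. Its log2 fold change was -1.15 (SE 0.102, limma adjusted p = 1.74e-06), and -0.80 as TPM. Only 3.9% of tested genes had a log2 fold change as low as or lower than that of POLR1B, and its groups were far apart relative to the spread within either. POLR1B lies at chr2:112541915-112577150 on the plus strand (GRCh38). POLR1E, a subunit that works in initiation and elongation, averaged 25.4 ± 2.38 in sgMETTL1.3 and 44.1 ± 2.37 in sgNS libraries (SD, n = 3), a log2 fold change of -0.78, and -0.43 as TPM.

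The 3 polymerase I subunits listed under older symbols also fell on both scales, where 49.3% of all tested genes fell as deposited and 25.3% as TPM. CD3EAP, now called POLR1G, had values of 6.63, 5.16 and 5.30 in sgMETTL1.3 libraries, against 19.0, 19.2 and 18.8 in sgNS libraries, a log2 fold change of -1.59 (limma, SE 0.123, adjusted p = 6.72e-07) and -1.26 as TPM. The controls differed by less than 1 unit and the sgMETTL1.3 libraries by less than 2. TWISTNB (POLR1F) had a log2 fold change of -0.93 and ZNRD1 (POLR1H) of -0.76, and as TPM -0.58 and -0.40. CD3EAP shares up to 1593 exonic bases with genes on the opposite strand, among them ERCC1, and whether reads were assigned by strand is not given, so reads of the partner genes cannot be told apart from its own.

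Among the polymerase I promoter factors, 3 SL1 subunits fell as deposited, where 49.3% of all tested genes fell, and TAF1C and UBTF did not pass. TAF1A averaged 10.8 ± 0.877 in sgMETTL1.3 and 18.5 ± 1.596 in sgNS libraries (SD, n = 3), a log2 fold change of -0.73, and -0.39 as TPM. TAF1B, which has the smallest p of these factors, had values of 17.6, 17.1 and 18.6 in sgMETTL1.3 libraries, against 28.02, 32.5 and 30.02 in sgNS libraries. The log2 fold change of TAF1B was also -0.73 (SE 0.109, limma adjusted p = 9.37e-05), and -0.38 as TPM. TAF1D, whose gene also hosts small nucleolar RNAs, had 48.5, 48.1 and 62.2 in sgMETTL1.3 libraries, against 82.5, 83.9 and 83.7 in sgNS libraries, and fell by 0.66 on the log2 scale but did not pass as TPM (-0.30, limma adjusted p = 0.0700). TAF1C had 34.8, 19.2 and 21.8 in sgMETTL1.3 libraries, against 25.5, 27.5 and 30.1 in sgNS libraries. Replicate 1 of sgMETTL1.3 lay above all controls and the other 2 below all of them. The log2 fold change of TAF1C was -0.17 with all libraries (limma adjusted p = 0.502) and -0.41 without that replicate, when it passed, and it was 0.18 as TPM without passing.

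UBTF, the factor that binds along ribosomal RNA genes, differed least among the genes of polymerase I whose groups did not overlap. Its values were 83.3, 67.6 and 75.6 in sgMETTL1.3 libraries, against 86.3, 90.9 and 92.2 in sgNS libraries. The log2 fold change was -0.25 (SE 0.105, limma adjusted p = 0.0568), and -0.32 without sgMETTL1.3 replicate 1, when it passed. As TPM the direction turned, with 84.2 ± 1.10 in sgMETTL1.3 and 78.2 ± 1.45 in sgNS libraries (SD, n = 3), a log2 fold change of 0.11 that did not pass. As TPM without sgMETTL1.3 replicate 1, UBTF rose (0.10, limma adjusted p = 0.00955), so without that replicate its call differed in direction between the scales. In those fits 61.4% of all tested genes fell as deposited and 36.3% rose as TPM. The deposited fit without that replicate also gave very small p-values. Within a library, the ratio of UBTF to POLR1B does not depend on the spike-in factor. It was 3.06, 2.49 and 2.45 in sgMETTL1.3 libraries, against 1.38, 1.38 and 1.43 in sgNS libraries. This ratio was 1.91 times as high in sgMETTL1.3 libraries, without overlap.

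POLR1C and POLR1D, the pair that forms the assembly platform of both enzymes, fell on both scales. Among all tested genes, 49.3% fell as deposited and 25.3% as TPM. POLR1C had values of 43.8, 37.9 and 43.5 in sgMETTL1.3 libraries, against 83.0, 86.3 and 88.3 in sgNS libraries, a log2 fold change of -1.03 (limma, SE 0.102, adjusted p = 3.90e-06) and -0.67 as TPM. POLR1D averaged 45.3 ± 4.11 in sgMETTL1.3 and 67.4 ± 3.51 in sgNS libraries (SD, n = 3). It changed by -0.57 on the log2 scale, and by -0.21 as TPM (limma adjusted p = 0.0252). Exons of POLR1C overlap those of XPO5 and YIPF3 on the opposite strand.

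**Figure D1:**
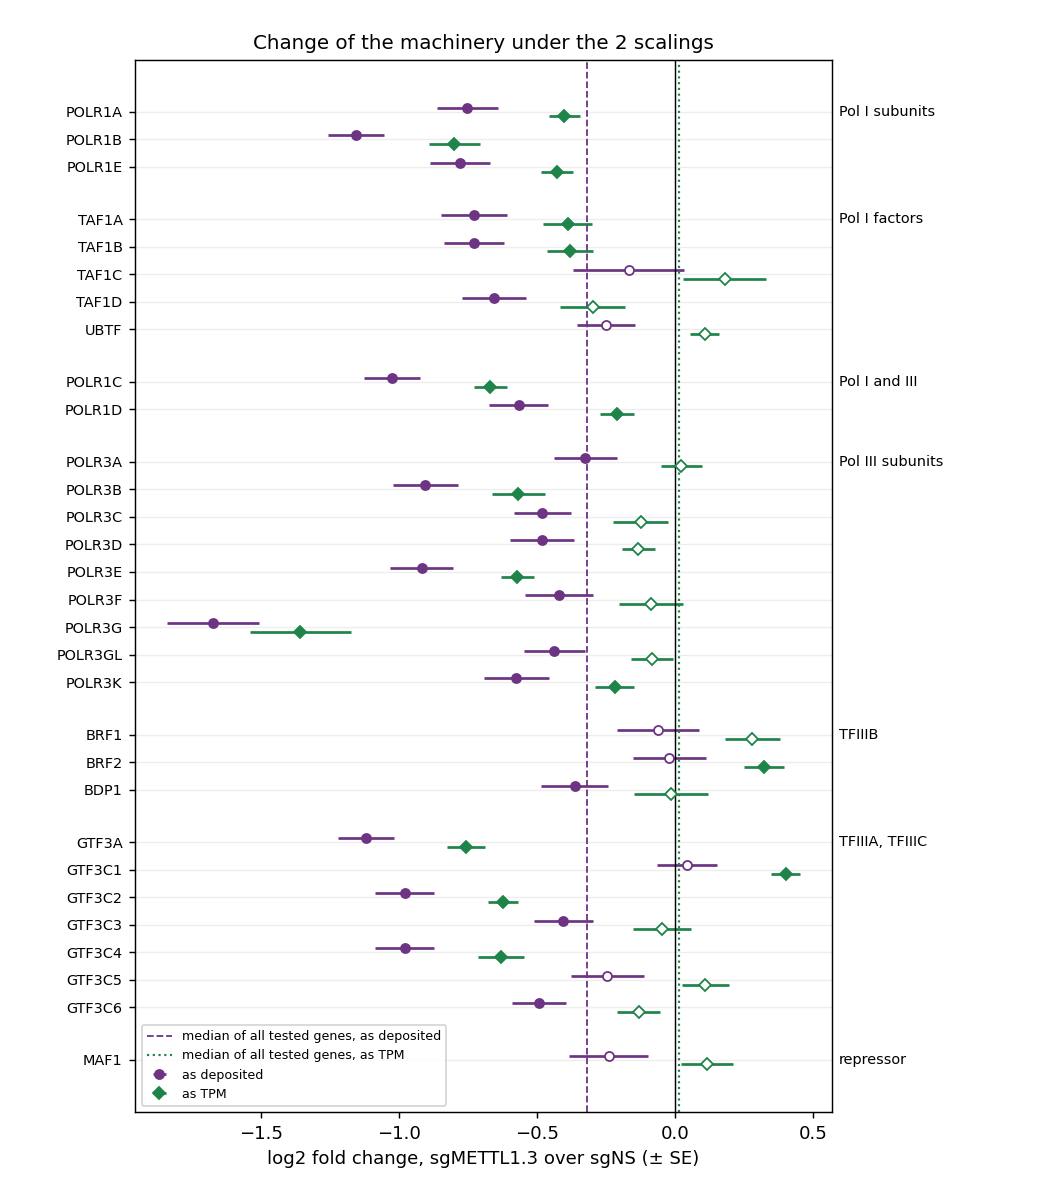
Log2 fold change of sgMETTL1.3 over sgNS for genes of the machinery with its SE, as deposited (purple circles) and as TPM (green diamonds), each from 3 libraries against 3; filled symbols passed limma's adjusted p under 0.05 and open symbols did not. The dashed and dotted lines are the medians of all tested genes, -0.32 as deposited and 0.01 as TPM, and POLR3G lies farthest to the left at -1.67 and -1.36.

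The polymerase III subunits in the rule had a median log2 fold change of -0.48 as deposited and -0.13 as TPM, and 4 of the 10 fell on both scales. Of all tested genes 49.3% fell as deposited and 25.3% as TPM. The drop of POLR3G exceeded that of every other gene in the rule. It encodes an alternative form of the subunit that joins the initiation subcomplex to the core, and is known to be highest in stem cells and tumour cells, while its paralog POLR3GL is the form found widely in differentiated tissue. POLR3G had values of 2.72, 3.29 and 4.89 in sgMETTL1.3 libraries, against 12.01, 14.5 and 14.1 in sgNS libraries. The log2 fold change was -1.67 (SE 0.167, limma adjusted p = 8.35e-06) and -1.36 as TPM. Only 0.458% of tested genes had a log2 fold change as low as or lower than that of POLR3G. With values this near the pseudocount of 1 the fold is understated, and it was -1.91 with a pseudocount of 0.1 and -1.11 with a pseudocount of 5. Leaving out 1 library at a time kept it between -1.86 and -1.53.

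POLR3GL had a smaller log2 fold change than its paralog. It had values of 38.6, 35.1 and 40.0 in sgMETTL1.3 libraries, against 46.0, 55.9 and 53.6 in sgNS libraries, with a log2 fold change of -0.44 (limma, SE 0.111, adjusted p = 0.00425) as deposited. As TPM it did not pass (-0.08, limma adjusted p = 0.398). On these length-corrected values, POLR3G made up 6.58%, 8.58% and 10.9% of the pair in sgMETTL1.3 libraries, against 20.7%, 20.6% and 20.8% in sgNS libraries. The share of POLR3G was nearly constant among controls and lower in each sgMETTL1.3 library (exact two-sided permutation p = 0.1, the smallest possible). POLR3G lies at chr5:90471748-90514553 and POLR3GL at chr1:145964702-145978848, both on the plus strand. POLR3G overlaps MBLAC2 on the opposite strand by 260 exonic bases, and POLR3GL overlaps a protein-coding gene on its own strand by 382. The annotation also holds 2 pseudogenes named for POLR3G.

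**Figure D2:**
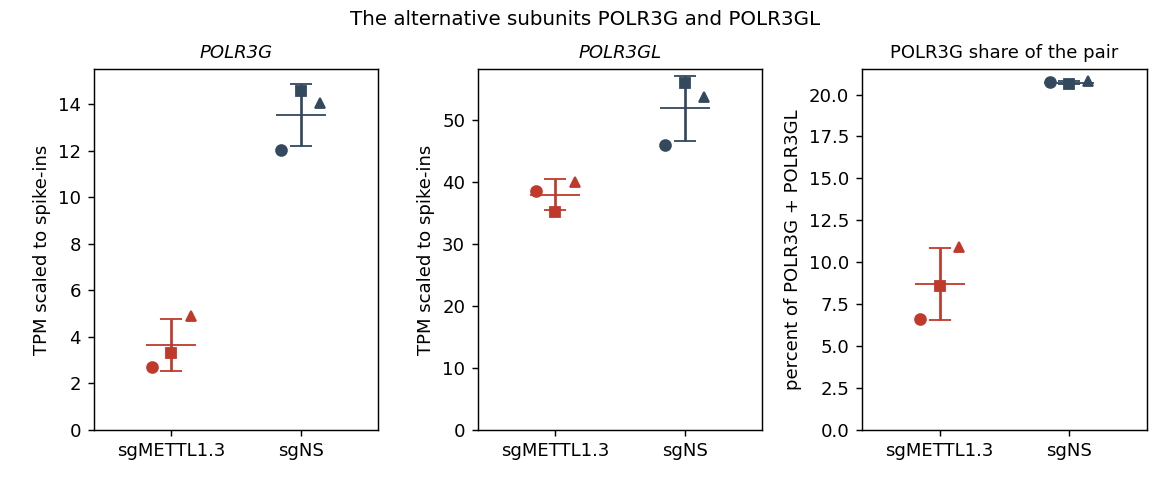
Levels of POLR3G and POLR3GL (TPM scaled to spike-ins) and the share of POLR3G in the sum of the pair (percent), in the 3 sgMETTL1.3 libraries on the left and the 3 sgNS libraries on the right of each panel. Symbols are libraries, bars are mean and SD; the share averages 8.68% in sgMETTL1.3 and 20.7% in sgNS libraries, while POLR3GL itself is lower as deposited and does not pass as TPM.

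The catalytic subunits of polymerase III did not fall by the same amount. POLR3A, the largest subunit, had values of 20.6, 17.8 and 21.8 in sgMETTL1.3 libraries, against 24.1, 27.1 and 24.9 in sgNS libraries. Its log2 fold change of -0.33 (limma, SE 0.115, adjusted p = 0.0281) was close to the median of all genes, and it was 0.02 as TPM. POLR3A lost its call without sgMETTL1.3 replicate 2 (-0.25) and without any of the 3 controls (-0.36 to -0.28). POLR3B, its partner in the catalytic centre, had 9.06, 8.94 and 10.0 in sgMETTL1.3 libraries, against 17.2, 20.2 and 17.8 in sgNS libraries, a log2 fold change of -0.90 (limma, SE 0.117, adjusted p = 2.96e-05) and -0.57 as TPM. The ratio of POLR3B to POLR3A within a library was 0.440, 0.501 and 0.460 in sgMETTL1.3 libraries, against 0.714, 0.745 and 0.713 in sgNS libraries. The same comparison in polymerase I, POLR1B over POLR1A, gave 1.05, 1.26 and 1.26 in sgMETTL1.3 libraries, against 1.61, 1.56 and 1.55 in sgNS libraries. In both enzymes the transcript of the second largest subunit was thus lower relative to that of the largest, in every sgMETTL1.3 library. Polymerase II showed the same shift. Its second largest subunit, POLR2B, lay above the largest, POLR2A, in each sgNS library and below it in each sgMETTL1.3 library. Their log2 fold changes as deposited were -0.70 for POLR2B and 0.21 for POLR2A. Transcript GC content was 44.8% for POLR1B against 51.7% for POLR1A, and 44.0% for POLR3B against 49.4% for POLR3A. The part of GC content in these ratios was not tested.

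After POLR3G, the polymerase III subunit with the lowest log2 fold change was POLR3E, with a value close to that of POLR3B. POLR3E, which with POLR3D forms a TFIIF-like pair on the enzyme, averaged 16.2 ± 1.66 in sgMETTL1.3 and 31.4 ± 1.24 in sgNS libraries (SD, n = 3), a log2 fold change of -0.92, and -0.57 as TPM. POLR3D itself had values of 28.01, 21.5 and 25.7 in sgMETTL1.3 libraries, against 34.6, 36.1 and 35.2 in sgNS libraries, and fell as deposited (-0.48) but did not pass as TPM (-0.13). POLR3K, a small subunit used in RNA cleavage and termination, fell by 0.58 on the log2 scale and by 0.22 as TPM (limma adjusted p = 0.0352). POLR3C and POLR3F form the initiation subcomplex with POLR3G or POLR3GL. POLR3C had 40.4, 41.5 and 46.5 in sgMETTL1.3 libraries, against 56.9, 62.6 and 60.7 in sgNS libraries, and fell as deposited (-0.48) but did not pass as TPM (-0.13). POLR3F had 9.12, 9.55 and 10.96 in sgMETTL1.3 libraries, against 12.9, 14.996 and 12.8 in sgNS libraries, and likewise fell as deposited (-0.42) but did not pass as TPM (-0.09). For POLR3C, POLR3D and POLR3F the groups did not overlap as deposited. POLR3F lost its call without sgNS replicate 2 (-0.35). CRCP, a polymerase III subunit outside the rule, did not pass as deposited (-0.08), but rose as TPM (0.27, limma adjusted p = 0.0181).

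Of the 3 TFIIIB genes, BDP1 fell as deposited, where 49.3% of all tested genes fell. As TPM none of the 3 fell and BRF2 rose, where 25.3% of all tested genes fell and 24.8% rose. BRF1, the TFIIIB subunit at tRNA and 5S genes, had values of 21.7, 13.95 and 15.8 in sgMETTL1.3 libraries, against 16.9, 17.9 and 18.3 in sgNS libraries. Its log2 fold change was -0.06 (limma, SE 0.147, adjusted p = 0.737). Replicate 1 of sgMETTL1.3 was above all controls and the other 2 were below all of them. As TPM the log2 fold change of BRF1 was 0.28 without passing (limma adjusted p = 0.0533). BRF2, its counterpart at promoters such as that of U6, had 21.8, 15.6 and 18.8 in sgMETTL1.3 libraries, against 17.2, 20.1 and 19.4 in sgNS libraries. BRF2 had a log2 fold change of -0.02 as deposited (SE 0.132, limma adjusted p = 0.90), while it rose as TPM with 20.8 ± 1.23 in sgMETTL1.3 and 16.4 ± 0.563 in sgNS libraries (SD, n = 3; log2 fold change 0.32, limma adjusted p = 0.00920). BRF2 shares 1629 of its 2760 exonic bases with ADGRA2 on the opposite strand, so its reads are uncertain.

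BDP1, the third TFIIIB subunit, fell as deposited. It had values of 19.4, 22.2 and 25.3 in sgMETTL1.3 libraries, against 26.7, 30.9 and 29.01 in sgNS libraries, with a log2 fold change of -0.36 (limma, SE 0.121, adjusted p = 0.0211). The call of BDP1 was lost without sgNS replicate 2 (-0.32) or replicate 3 (-0.36), and as TPM its log2 fold change was -0.02. TBP, which is part of both SL1 and TFIIIB, did not pass on either scale (-0.20 as deposited and 0.15 as TPM).

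Of GTF3A and the TFIIIC subunits, 5 of 7 genes fell as deposited, while as TPM 3 fell and 1 rose. Of all tested genes 49.3% fell and 6.4% rose as deposited, and 25.3% fell and 24.8% rose as TPM. GTF3A, the 5S-specific factor TFIIIA and the most abundant transcript of the 31, had values of 178, 161 and 193 in sgMETTL1.3 libraries, against 361, 403 and 391 in sgNS libraries. Its log2 fold change was -1.12 (SE 0.102, limma adjusted p = 2.09e-06), and -0.76 as TPM. GTF3A lies at chr13:27424544-27435823 on the plus strand. The annotation holds 4 pseudogenes named for GTF3A, so part of its reads could be shared. GTF3C2 averaged 37.2 ± 3.49 in sgMETTL1.3 and 74.1 ± 3.55 in sgNS libraries, and GTF3C4 18.9 ± 1.11 in sgMETTL1.3 and 38.3 ± 1.77 in sgNS libraries (SD, n = 3 each). Both had a log2 fold change of -0.98, and -0.62 and -0.63 as TPM. GTF3C6 had 140, 134 and 151 in sgMETTL1.3 libraries, against 192, 212 and 195 in sgNS libraries, and fell as deposited (-0.49) but did not pass as TPM (-0.13). GTF3C3 had 55.9, 57.5 and 67.0 in sgMETTL1.3 libraries, against 75.5, 83.4 and 80.3 in sgNS libraries, and fell as deposited (-0.40) but did not pass as TPM (-0.05). Both kept all sgMETTL1.3 libraries below all controls as deposited. GTF3C5 had 56.8, 38.3 and 43.6 in sgMETTL1.3 libraries, against 53.4, 54.6 and 54.8 in sgNS libraries, and did not pass on either scale (-0.25 as deposited and 0.11 as TPM), although it passed as deposited without sgMETTL1.3 replicate 1 (-0.40).

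GTF3C1, the largest TFIIIC subunit, which contacts the B box of tRNA genes, did not pass as deposited and rose as TPM. Its values were 92.4, 73.0 and 86.05 in sgMETTL1.3 libraries, against 77.9, 85.0 and 80.3 in sgNS libraries, a log2 fold change of 0.04 (limma, SE 0.110, adjusted p = 0.769). As TPM, GTF3C1 averaged 93.4 ± 1.29 in sgMETTL1.3 and 70.5 ± 1.57 in sgNS libraries (SD, n = 3), with 0.40 as its log2 fold change (limma adjusted p = 0.00107). The groups overlap as deposited and are separate as TPM. The ratio of GTF3A to GTF3C1 within a library was 1.93, 2.20 and 2.24 in sgMETTL1.3 libraries, against 4.64, 4.75 and 4.86 in sgNS libraries, so that it stood at 0.447 times the control mean.

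MAF1, the repressor of polymerase III, did not pass on either scale. It had values of 81.1, 52.2 and 62.9 in sgMETTL1.3 libraries, against 73.8, 74.4 and 80.8 in sgNS libraries. The log2 fold change was -0.24 (SE 0.144, limma adjusted p = 0.178) as deposited and 0.12 as TPM, and -0.41 without sgMETTL1.3 replicate 1, when it passed. Only that replicate lay above all controls.

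**Figure D3:**
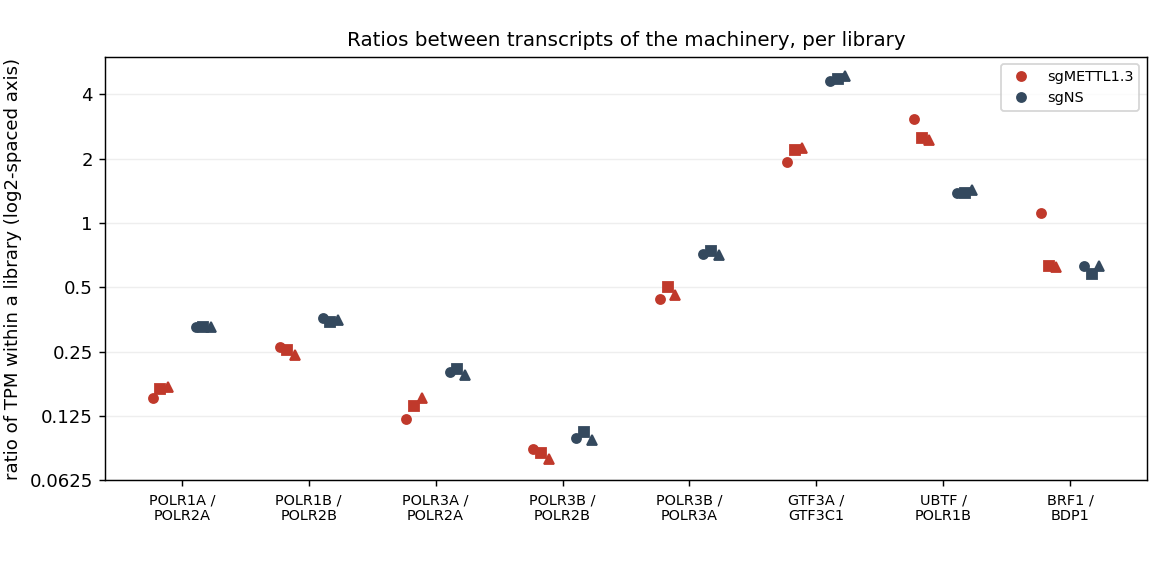
Ratios between transcripts within each library, on a log2-spaced axis, with the 3 sgMETTL1.3 libraries left of the 3 sgNS libraries; the spike-in factor cancels in each ratio. The groups are separate in 7 of the 8 ratios and overlap in BRF1 over BDP1, where sgMETTL1.3 replicate 1 stands at 1.12 and the other 2 sgMETTL1.3 libraries at 0.630 and 0.625, against 0.577 to 0.632 in sgNS libraries.

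Set against each other, polymerase I genes had lower fold changes than polymerase III genes on both scales, which is given as a description. Of 8 polymerase I genes 6 fell, with a median log2 fold change of -0.73, and of 21 polymerase III genes 16 fell, with a median of -0.44, where 49.3% of all tested genes fell. As TPM, 5 of 8 polymerase I genes and 7 of 21 polymerase III genes fell, with medians of -0.39 and -0.09, and 2 polymerase III genes rose, where 25.3% of all tested genes fell and 24.8% rose. Within each library, the mean log2 level of the polymerase I genes minus that of the polymerase III genes was -0.0891, -0.0972 and -0.120 in sgMETTL1.3 libraries, against 0.00399, -0.0130 and 0.0285 in sgNS libraries. The gap was lower in each sgMETTL1.3 library, by 0.11 on average as deposited and as TPM, and by 0.16 with POLR3G left out of the polymerase III genes. For subunits only the difference was -0.24, and for the promoter factors and MAF1 only it was -0.06. These are descriptions of means over genes and carry no test.

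Polymerase II, which makes mRNA, gives a yardstick from the same libraries. Of 8 genes listed for it, 7 fell as deposited, with a median log2 fold change of -0.42, where 49.3% of all tested genes fell. As TPM 2 fell, 1 rose and 5 did not pass, with a median of -0.06, where 25.3% of all tested genes fell and 24.8% rose. POLR2B, its second largest subunit, had a log2 fold change of -0.70 as deposited and fell as TPM too (-0.34), while POLR2M fell as deposited (-0.58) but did not pass as TPM (-0.22, limma adjusted p = 0.100). POLR2A, the largest subunit, was the gene that rose as TPM (0.57), and it did not pass as deposited (0.21). POLR1A relative to POLR2A stood at 0.153, 0.168 and 0.172 in sgMETTL1.3 libraries, against 0.325, 0.327 and 0.327 in sgNS libraries. POLR3A relative to POLR2A stood at 0.122, 0.139 and 0.153 in sgMETTL1.3 libraries, against 0.201, 0.208 and 0.196 in sgNS libraries. For the second largest subunits, POLR1B over POLR2B averaged 0.254 ± 0.0104 in sgMETTL1.3 and 0.353 ± 0.00651 in sgNS libraries, and POLR3B over POLR2B 0.0835 ± 0.00449 in sgMETTL1.3 and 0.100 ± 0.00478 in sgNS libraries (SD, n = 3 each). All 4 ratios were lower in each sgMETTL1.3 library. For POLR3A over POLR2A this went with the rise of POLR2A as TPM, where the log2 fold change of POLR3A was 0.02. By medians, polymerase III (-0.44, and -0.09 as TPM) was close to polymerase II (-0.42 and -0.06). Exact permutation was run on 12 ratios, and those other than POLR3G with POLR3GL were chosen after the values were seen. The POLR3G pair counts as 2 of the 12, as a ratio and as a share, which carry the same information. Of the 12, 11 had the exact two-sided permutation p of 0.1, or 0.109 after Benjamini-Hochberg adjustment, and BRF1 over BDP1 had 0.6. BRF1 over BRF2 was computed but left out of these tests, and its groups overlapped. It was 0.997, 0.895 and 0.843 in sgMETTL1.3 libraries, against 0.980, 0.891 and 0.945 in sgNS libraries.

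The counts for other genes of the pathway are to be read against all tested genes, of which 49.3% fell and 6.4% rose as deposited, and 25.3% fell and 24.8% rose as TPM. Of 5 subunits common to polymerases I, II and III, 3 fell as deposited and 2 as TPM, with POLR2H at -0.97 and POLR2F at -0.76 as deposited, both also lower as TPM, and POLR2K at -0.56, which did not pass as TPM. Of 6 genes of TBP and the SNAP complex, which serves U6-type promoters, 2 fell as deposited, SNAPC1 (-0.64) and SNAPC3 (-0.37), and SNAPC1 alone did so as TPM. Of 9 polymerase I associates, 8 fell as deposited, and as TPM 5 fell and 1 rose. NOLC1, a nucleolar chaperone of small nucleolar RNPs that binds polymerase I with TCOF1, fell by 1.17 on the log2 scale as deposited and by 0.81 as TPM. TTF2, a termination factor best known for releasing polymerase II, fell by 1.03 as deposited and by 0.68 as TPM. Of 8 polymerase III associates, 4 fell and none rose as deposited, while 2 fell and 3 rose as TPM. SSB, the La protein that binds the 3′ ends of new polymerase III transcripts, fell by 0.73 as deposited and by 0.37 as TPM, and POU2F1 by 0.62 and 0.28. Of 8 regulators of both enzymes, all 8 fell as deposited and 3 as TPM. The lowest p-values as deposited belonged to MYC, which activates both polymerases (-1.57, and -1.21 as TPM), and RB1, the retinoblastoma protein, which restrains both (-0.64 as deposited), and which did not pass as TPM (-0.28).

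The deviation of sgMETTL1.3 replicate 1 followed the GC content of the transcripts. Across the 31 genes, its difference from the mean of replicates 2 and 3 had a Spearman correlation of 0.895 with the GC content of the longest transcript (genes of 1 library, given as a description), and across 11745 tested genes 0.838. POLR3G, at 34.3% GC, was 0.44 lower in replicate 1 on the log2 scale, and TAF1C, at 62.0%, was 0.74 higher. The 7 genes that did not pass had a median GC content of 59.1%, against 46.0% for the 24 that fell. Without that replicate, 28 of the 31 fell, where 61.4% of all tested genes fell and 6.43% rose. The 4 added were TAF1C, UBTF, GTF3C5 and MAF1, while BRF1 (-0.24), BRF2 (-0.13) and GTF3C1 (-0.03) still did not pass. That fit gave very small p-values, so these 4 calls are not directly comparable with those from all libraries. As TPM without that replicate, 16 fell and 6 rose, against 34.3% and 36.3% of all tested genes. The 6 that rose were UBTF, BRF1, BRF2, BDP1, GTF3C1 and GTF3C3. GC content and the log2 fold change itself had a Spearman correlation of 0.525 across the 31 genes, 0.347 without that replicate, and 0.285 across the 11745 tested genes, again given as descriptions over genes of the same libraries.

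**Figure D4:**
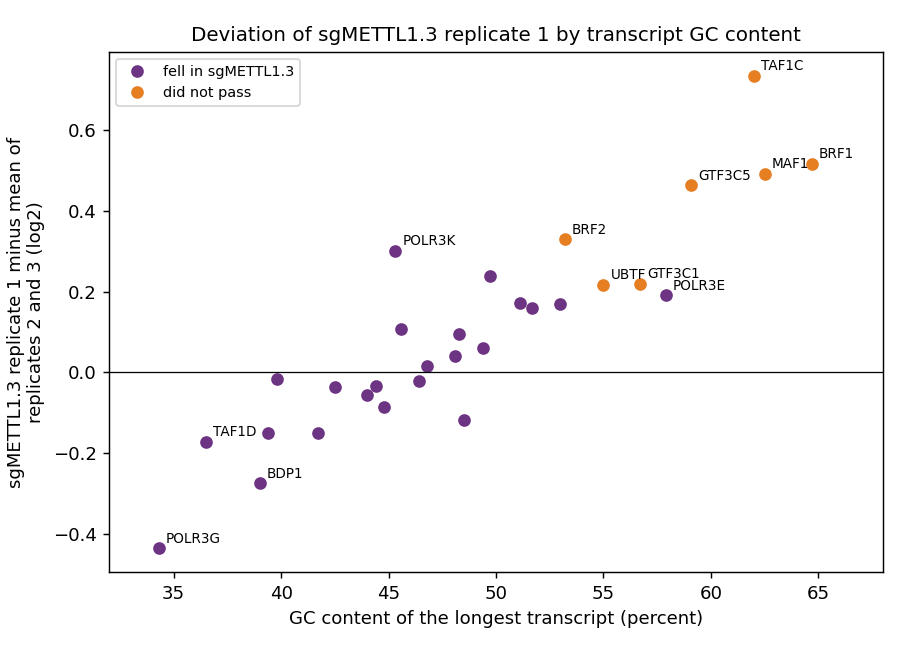
Log2 level in sgMETTL1.3 replicate 1 minus the mean of sgMETTL1.3 replicates 2 and 3, against the GC content of the longest transcript (percent), 1 point per gene; purple genes fell as deposited and orange genes did not pass. The points climb from POLR3G at 34.3% GC to TAF1C and BRF1 at 62.0% and 64.7%, and the 7 orange genes lie at 53.2% GC or more.

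Promoters of these genes were searched for CACGTG, the canonical E-box that MYC with MAX can bind. The motif is its own reverse complement, so 1 search covers both strands. RefSeq promoters (GRCh38.p14) were found for 25 of the 31 genes. Within 250 bases before the start site, 3 of the 25 held the motif (12%), against 6.34% of 35116 promoters, and none of the 7 polymerase I promoters did. The promoter of CD3EAP, looked at because its fold change was the lowest among polymerase I subunits, also held it. The promoters of TWISTNB and ZNRD1, searched in the same way, did not, and none was found for CRCP. The stretches around the motif, which is in capitals, are shown 5′ to 3′ on the strand of the gene because they hold every match found among the 25 promoters, with that of CD3EAP added.
CD3EAP, chr19:45406620-45406643, plus strand: cccctttggatcCACGTGgtctgc
GTF3C2, chr2:27356850-27356879, minus strand: ccggaccaagcaCACGTGtttaccttgtgc
GTF3C6, chr6:110958552-110958581, plus strand: gtggcgagtctcCACGTGggtaccggcgct
POLR3A, chr10:78029533-78029562, minus strand: agaggaagcggaCACGTGggacactctacg
The motif starts 12 bases before the start site in CD3EAP, 103 in GTF3C2, 142 in GTF3C6 and 35 in POLR3A. Counted on either strand and for any gene, GENCODE release 29 annotates UTR over all 24 bases of the CD3EAP stretch, all 30 of the GTF3C2 stretch, 22 of the 30 in GTF3C6 and 13 of the 30 in POLR3A, so the stretches lie wholly or partly in annotated transcripts. The log2 fold changes of the 4 genes ran from -1.59 to -0.33, while POLR1B (-1.15) and GTF3A (-1.12) had no match in this window.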

How the data were processed

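Poly(A)-selected RNA from 3 sgMETTL1.3 and 3 sgNS libraries was analysed from the deposited table of signal values. Per the submitters' processing notes, cutadapt, STAR and RSEM were used with GRCh38 (hg38). The sources used here give no versions, no annotation and no strandedness. As read from the values, the deposited signal is TPM (rounded to 0.01) times a library-wide factor that brings 92 spike-in rows to a sum of 38252. Read depth is therefore unknown and no counting interval is given. "As TPM" means each library rescaled to the usual TPM total without spike-ins.

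The 12449 genes that reached 1 in 3 or more of the 6 libraries were fitted by limma 3.58.1 (R 4.3.3; robust, with a mean-variance trend and no block) on log2(value + 1), with Benjamini-Hochberg adjustment over all of them at 0.05. Fold changes on this scale understate the change of low genes. Single ratios were compared by exact permutation (scipy 1.17.1). 1 gene of the rule is counted in the totals but not reported here, and every other gene found is named; values in all libraries are given for listed genes of each role, the gene with the smallest p in each role and each gene whose call differed between scales. Other lists up to 6 genes have each called gene named and longer ones the 2 smallest p, and POLR2A was added after its values were seen. Genes, lists and tests were chosen with earlier results of these data known. Coordinates, overlaps and GC content come from GENCODE release 29 (GRCh38).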

Additional observations from a re-analysis of the deposited data

How the results depend on the processing

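The count of genes called depended mainly on the scale. Of the 31 genes, 14 fell as TPM, 15 after median-ratio rescaling, 13 after quantile normalization and 12 as TPM with the replicate block, against 24 as deposited; 2, 2, 3 and 2 rose, and 6 rose as TPM without sgMETTL1.3 replicate 1. In the same order of settings, 7, 7, 6 and 6 polymerase III genes fell, and 2 rose in each, against 8 and 5 as TPM without that replicate. In polymerase I, 1 gene rose after quantile normalization and as TPM without that replicate, and 1 of the 2 shared genes fell as TPM with the block. The polymerase I median was -0.39, -0.42, -0.38, -0.39 and, as TPM without that replicate, -0.31, and that of polymerase III -0.087, -0.12, -0.056, -0.087 and -0.028. Of the pathway lists, 18, 22, 16 and 16 genes fell and 6, 6, 8 and 6 rose, with 11 rising as TPM without that replicate, 3 when sgMETTL1.3 replicate 2 was left out, and 1 when genes needed a mean of at least 5. Of all tested genes 3147, 3603, 3231 and 2953 fell and 3093, 2869, 2978 and 2932 rose, with 4445 rising as TPM without that replicate and 510 under that filter on the mean. The log2 difference of POLR3G minus POLR3GL between groups was -1.46 with a pseudocount of 0.1 and -0.70 with 5.

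As TPM, with or without the block, the direction turned for BRF1 (0.28), BRF2 (0.32), GTF3C5 (0.11), MAF1 (0.12), POLR3A (0.022), TAF1C (0.18) and UBTF (0.11). After median-ratio rescaling it turned for BRF1 (0.25), BRF2 (0.29), GTF3C5 (0.074), MAF1 (0.081), TAF1C (0.14) and UBTF (0.071). After quantile normalization it turned for BRF1 (0.29), BRF2 (0.34), GTF3C3 (0.016), GTF3C5 (0.16), MAF1 (0.19), POLR3A (0.040), TAF1C (0.21) and UBTF (0.17). As TPM without sgMETTL1.3 replicate 1 it turned for BDP1 (0.15), BRF1 (0.17), BRF2 (0.28), GTF3C3 (0.073), GTF3C5 (0.024), MAF1 (0.022), POLR3A (0.070), POLR3F (0.029), TAF1C (0.0019) and UBTF (0.10). The cause was not tested beyond the change of scale itself.

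Leaving out 1 library at a time gave 20 (without sgNS replicate 2) to 28 genes lower and 0 higher, 6 to 8 in polymerase I, 12 (without sgNS replicate 2) to 18 in polymerase III, and 28 (without sgNS replicate 3) to 39 in the pathway lists with 0 to 3 higher. All tested genes lower ran from 4880 to 7538 and higher from 534 to 1037. Medians ran from -0.78 to -0.68 for polymerase I and from -0.50 to -0.38 for polymerase III. BRF1 ran from -0.24 to 0.066, BRF2 from -0.13 to 0.097 (0.020 without sgNS replicate 2) and GTF3C1 from -0.032 to 0.14. The fit without sgMETTL1.3 replicate 1 gave very small p-values, so its counts are not directly comparable.

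Deviations of same-numbered libraries from their group means correlated at -0.0137, 0.00455 and -0.0385, so no pairing by replicate number was seen. Such correlations cannot show whether the libraries were paired by design. With the replicate block 22 of the 31 genes fell, with POLR3A losing its call (limma adjusted p = 0.0661), and 5861 genes in all fell and 814 rose. That fit too gave very small p-values (limma adjusted p = 1.08e-20 for POLR3G), so its calls are not directly comparable. Read depth is unknown, so what counting error limits could not be given.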

Other observations

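A few RNAs that polymerase III makes were higher in sgMETTL1.3 libraries. Of 22 listed polymerase III transcripts, 12 were tested. RNU6ATAC reached the filter through the sgMETTL1.3 libraries alone (7.19, 17.9 and 24.0, and listed at 0 in all sgNS libraries), so its difference follows from the filter and it is left out of the counts. Of the other 11, 3 rose and none fell as deposited, where 6.4% of all tested genes rose, and 5 rose as TPM, where 24.8% rose. RN7SK, the RNA that holds the elongation factor P-TEFb inactive, had values of 349, 248 and 238 in sgMETTL1.3 libraries, against 118, 145 and 130 in sgNS libraries (log2 fold change 1.07, limma adjusted p = 0.000186, and 1.43 as TPM). RN7SL2, an RNA of the signal recognition particle, had 386, 257 and 251 in sgMETTL1.3 libraries, against 124, 136 and 126 in sgNS libraries (log2 fold change 1.18, and 1.54 as TPM). RPPH1, the RNA of RNase P, had 32.4, 26.1 and 28.8 in sgMETTL1.3 libraries, against 14.9, 12.3 and 11.9 in sgNS libraries (log2 fold change 1.10, and 1.44 as TPM). For these 3 the groups did not overlap, and they rose as TPM and without sgMETTL1.3 replicate 1, the highest library for each.

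RMRP, the RNA of RNase MRP, did not pass with all libraries (log2 fold change -0.55, and -0.23 as TPM). RMRP fell without sgMETTL1.3 replicate 1 (-0.54), without sgMETTL1.3 replicate 2 (-0.80), without sgNS replicate 3 (-0.56), with the replicate block (limma adjusted p = 0.00287) and without limma's trend and robust options (limma adjusted p = 0.0453). The fits with the block and without sgMETTL1.3 replicate 1 gave very small p-values in general, so calls from them are not directly comparable. BCYRN1, a brain-enriched cytoplasmic RNA, did not pass with all libraries (-1.07) and fell without sgMETTL1.3 replicate 1 (-1.72), while RN7SL1 (0.68 with all libraries, not passed) rose without that replicate (0.38). These RNAs carry no long poly(A) tail and the libraries were poly(A)-selected; how much of each escaped selection was not tested.

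The rows of the ribosomal RNAs, products of polymerase I, gave calls that depended on single libraries. RNA18S5 fell as deposited (log2 fold change -0.51, limma adjusted p = 0.0125) and did not pass as TPM (-0.15). Its call was also lost without sgMETTL1.3 replicate 2 (-0.39) or replicate 3 (-0.46). RNA28S5 did not pass on either scale (-0.42 and -0.06), but fell without sgMETTL1.3 replicate 1 (-0.64), without sgNS replicate 3 (-0.43), after quantile normalization (-0.51) and with the replicate block (limma adjusted p = 0.0129). As above, the block and the fit without sgMETTL1.3 replicate 1 gave very small p-values in general. RNA5-8S5 rose on both scales (0.59 and 0.95) and did not pass without sgMETTL1.3 replicate 2 (0.55). As TPM without sgMETTL1.3 replicate 1, RNA18S5 (-0.25) and RNA28S5 (-0.20) fell and RNA5-8S5 did not pass (0.91). The part of poly(A) selection in these values was not tested.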
